A study of Mus musculus with 12 samples.

Results

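The T-box genes followed here are *Tbx1*, *Tbx2*, *Tbx3*, *Tbx15*, *Tbx18* and *Tbx22*, 6 genes taken by name with every probe set that the array annotation gives to 1 of them alone. They account for 12 of 45037 probe sets, among 18193 genes with a symbol of their own on the array. *Tbx3* has 5 probe sets, *Tbx15* and *Tbx18* have 2 each, and the remaining 3 genes have 1 each. The RNA came from the nasal and maxillary prominences, the swellings that fuse to close the upper lip, of mouse embryos at E10.5. Neo/Null embryos (labelled NeoNull, aflox/null) carried a Neo allele and a null allele of *Tfap2a*, and Neo/Wt embryos (labelled control, aflox/wt) carried the same Neo allele over a wild-type one. The Neo allele is a conditional allele that retains a neomycin resistance cassette and makes less normal transcript, so the controls were not fully wild type. The mice were on an outbred Black Swiss background, and no other treatment was given. For each genotype and prominence 3 independent pools of dissected tissue were hybridized, 1 array per pool and 12 arrays in all. Whether the pools took in any Neo/Null embryos with exencephaly is not given in the sources used here.

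T-box genes encode transcription factors that bind DNA through a shared T-box domain, and they fall into subfamilies that act as repressors or activators. *Tbx2* and *Tbx3* form one subfamily, whose proteins are mainly repressors and hold back cell cycle inhibitors. *Tbx1*, *Tbx15*, *Tbx18* and *Tbx22* belong to another, in which TBX1 is needed for the pharyngeal arches and is affected in human DiGeorge syndrome, and TBX22 is a repressor mutated in human X-linked cleft palate. The regulator lowered in this model, AP-2α, the product of *Tfap2a*, is a transcription factor of the facial ectoderm and the neural crest.

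Levels are log2 signals as deposited by the authors, so that a difference of 1 is a doubling, and a level is compared only with other levels of the same probe set. Each probe set also has the authors' detection call for each group of 3 arrays, which is present, absent or variable. A probe set was tested between the prominences of a genotype if it was present in at least 1 of them, and between genotypes if it was present in both genotypes of that prominence. Markers are counted as higher or lower between prominences at a limma adjusted p under 0.05. Over all probe sets tested, 9.65% passed in Neo/Null and 8.23% in Neo/Wt tissue. The position markers of the upper face differed in the direction of the labels. Of the 5 maxillary position markers (among them *Dlx1* and *Lhx6*), 5 were lower in nasal tissue in both genotypes, and of 4 nasal ones (among them *Alx1* and *Pax7*), 4 were higher. Of 5 genes listed as markers of the mandibular arch, *Hand1* and *Hand2* were absent in all groups. *Dlx3* and *Dlx5*, which the ectoderm around the nasal pits is also known to express, were present in all groups, and *Dlx5* was higher in nasal tissue by 1.58 in Neo/Null and 0.85 in Neo/Wt embryos. Markers of other cell types also differed between prominences. Of 3 eye markers tested, 2 were higher in nasal tissue in each genotype, with *Six6* at 3.30 in Neo/Null and 2.45 in Neo/Wt embryos. *Mitf* differed by -0.02 in Neo/Null and -0.09 in Neo/Wt embryos and did not pass. *Rax* and *Tyr*, also listed for eye, were absent in all groups and were not tested. Of 3 forebrain markers tested, 3 were higher in nasal tissue in Neo/Null and 2 in Neo/Wt embryos. *Sox1*, *Lhx5* and *Fezf2*, also listed for forebrain, were present in no group and were not tested. *Pax6*, *Six6*, *Six3* and *Hes5* were present in nasal tissue alone, so they were tested only through the tissue where they were higher. The same holds for *Pax7*, and in maxillary tissue for *Dlx1* and *Lhx6*. It also holds in maxillary tissue for *Lhx8* in Neo/Null, and for *Barx1* and the endothelial marker *Tie1* in Neo/Wt embryos. *Pax6* and *Six3* are also among the nasal position markers. Of 6 endothelial markers, 4 were lower in nasal tissue in each genotype. Among 8 crest mesenchyme markers, nasal tissue had 2 higher with 3 lower in Neo/Null embryos, against 2 higher with 4 lower in Neo/Wt embryos. Among 8 surface ectoderm markers, it had 3 higher with 1 lower in Neo/Null embryos, against 4 higher with 1 lower in Neo/Wt embryos. Whether they passed or not, 7 of these 8 lay above 0 in each genotype, all but *Trp63*. The part of these cell types in the nasal minus maxilla values below was not tested. The brightest *Tfap2a* probe set averaged 9.13 ± 0.06 in Neo/Null nasal and 9.12 ± 0.07 in Neo/Wt nasal tissue (SD, n = 3 each). In the maxilla it averaged 9.15 ± 0.06 in Neo/Null and 9.10 ± 0.01 in Neo/Wt pools, so that the arrays do not tell the genotypes apart by this gene. Where its probe sets lie relative to the changed exons was not examined, and genotypes are those of the labels. One library stood apart: in Neo/Wt maxilla pool 3 the mean log2 signal of 7 markers of new neurons was 6.02, against 8.08 and 8.37 in the other Neo/Wt maxillary pools. The tissue was bulk, and fewer cells of a type cannot be told apart from less RNA per cell.

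Promoter sequence is shown for *Tbx1* and *Tbx22*, whose log2 signals as deposited lay farthest below and above 0 in nasal minus maxillary tissue. When an offset is added to its dim signal, *Tbx1* keeps that place in Neo/Null but not in Neo/Wt tissue. RefSeq windows on GRCm38.p6 were matched for 3 of the 6 genes (*Tbx1*, *Tbx18* and *Tbx22*, with 6 annotated starts). Each window runs from 250 bases before a start to 30 after it and is written 5′ to 3′ on the strand of the gene. The first window is that of the inner *Tbx1* start at chr16:18588870-18589149 (minus strand), shown because it is the 1 window with a match to the AP-2 motif, whereas the outermost *Tbx1* start has none. Capitals mark the match to the AP-2 motif GCCNNNGGC. The second is the outermost *Tbx22* start at chrX:107667714-107667993 (plus strand), which holds no match and so no capitals.
*Tbx1*: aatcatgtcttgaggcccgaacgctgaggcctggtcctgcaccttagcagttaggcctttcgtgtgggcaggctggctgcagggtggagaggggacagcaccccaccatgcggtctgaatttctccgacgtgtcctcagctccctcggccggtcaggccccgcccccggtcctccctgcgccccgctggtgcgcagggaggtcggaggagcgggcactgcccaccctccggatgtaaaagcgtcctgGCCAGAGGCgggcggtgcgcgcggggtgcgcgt
*Tbx22*: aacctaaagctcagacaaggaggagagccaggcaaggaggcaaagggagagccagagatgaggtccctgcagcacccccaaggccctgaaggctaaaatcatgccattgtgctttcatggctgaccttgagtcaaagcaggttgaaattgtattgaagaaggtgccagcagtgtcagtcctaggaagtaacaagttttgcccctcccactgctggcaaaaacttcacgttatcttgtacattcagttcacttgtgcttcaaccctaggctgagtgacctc
The AP-2 motif reads the same on both strands and was found in 15.4% of 32851 mouse promoter windows of this length. It occurred in 1 of the 6 windows of these genes. There it spans position -3 to position 6 from the annotated start, counted without a position 0. The T-box half-site AGGTGTGA was searched on both strands, was found in 1.22% of all windows, and occurred in 0 of the 6. The windows differed in CpG dinucleotides, of which the *Tbx1* window shown holds 24 and the *Tbx22* window 1, against a median of 6 over all windows. The other *Tbx22* windows hold 2 and 1, the other *Tbx1* window 14 and the *Tbx18* window 15. A match or its lack in these letters describes the window only.

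Of the 12 probe sets, 6 were called present in all 4 groups, as were 44.7% of all probe sets. These 6 belong to *Tbx2*, *Tbx3* and *Tbx22*. Another 3 were absent in every group, which are both probe sets of *Tbx15* and 1 of *Tbx3*. *Tbx18* was called present in Neo/Null nasal tissue alone, by its brighter probe set, and *Tbx1* was called absent in nasal and variable in maxillary tissue of both genotypes. The plot of log2 signal by pool gives the brightest probe set of each gene.

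**Figure D1:**
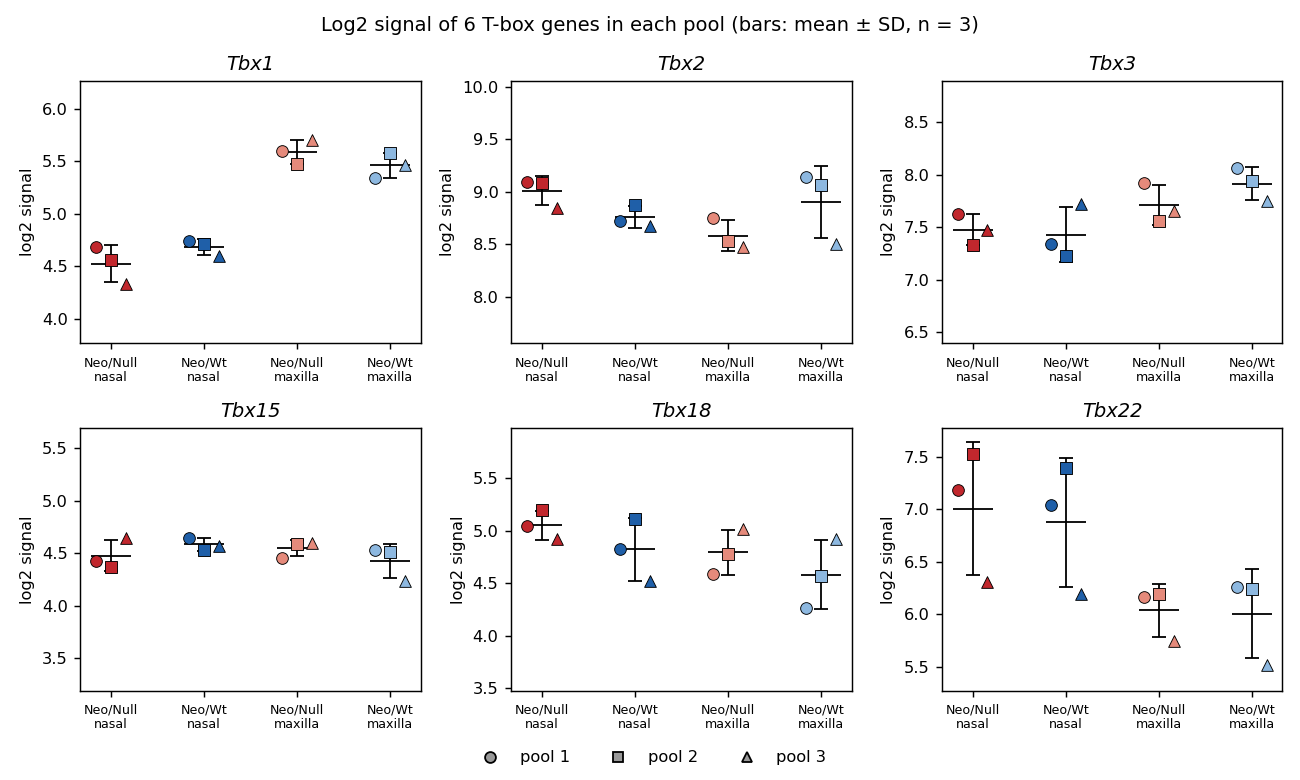
Log2 signal (y axis) of the brightest probe set of each of 6 T-box genes in the 4 groups (x axis), 1 point per pool with its shape giving the pool number, and bars for the mean ± SD (n = 3); every panel spans the same number of log2 units. *Tbx1* lies at 4.33 to 4.74 in the 6 nasal pools and at 5.34 to 5.70 in the 6 maxillary pools, and *Tbx22* is lowest in pool 3 of every group.

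The question put first is where in the face these genes are expressed, asked as nasal minus maxillary tissue within each genotype. In Neo/Null tissue, 1 of 7 tested T-box probe sets passed the limma adjusted p of 0.05, a *Tbx3* probe set that was lower in nasal tissue. In Neo/Wt tissue, 3 of 6 passed, all of *Tbx3* and all lower in nasal tissue. Over all probe sets tested, 9.65% passed in Neo/Null and 8.23% in Neo/Wt tissue, and those lower in nasal tissue made up 3.99% in Neo/Null and 4.22% in Neo/Wt tissue. Pools of the prominences did not overlap for 3 of the 7 in Neo/Null tissue and for 3 of the 6 in Neo/Wt tissue, against 29.5% and 26.3% of all probe sets in those genotypes. Since the 3 Neo/Wt probe sets that passed are of 1 gene, they are not separate genes behind the count.

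**Figure D2:**
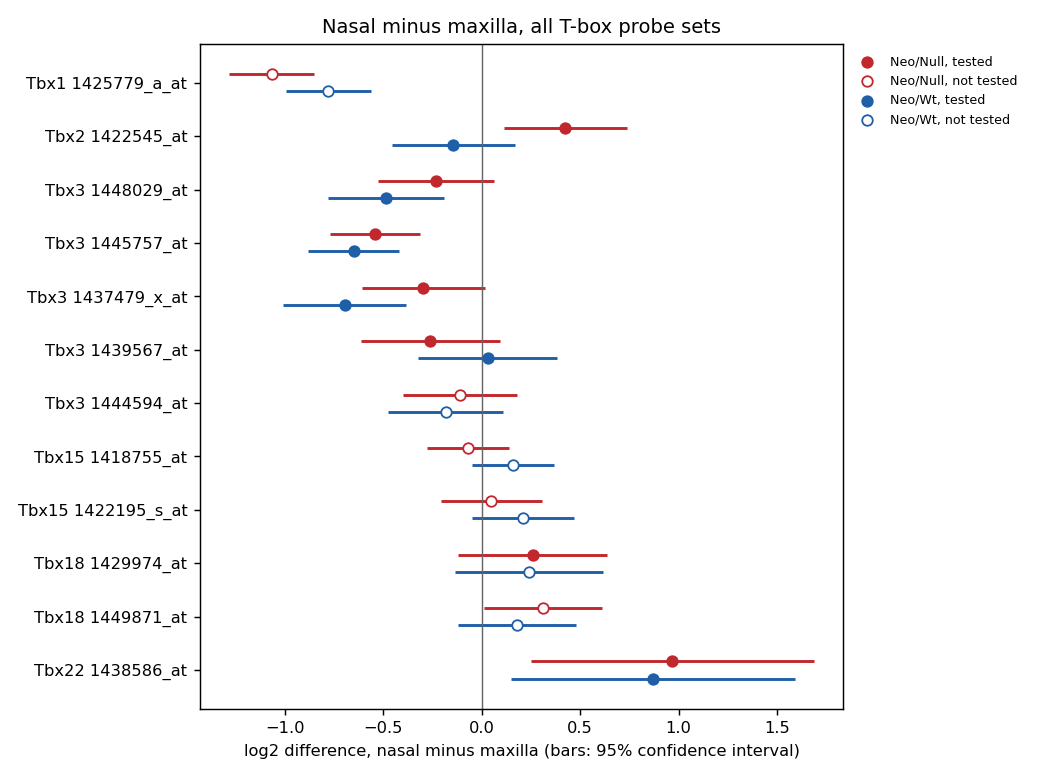
Nasal minus maxillary log2 signal (x axis) of the 12 T-box probe sets (y axis), Neo/Null above Neo/Wt, with limma's 95% confidence interval and open points where the probe set was not tested under the detection filter. *Tbx1* lies farthest to the left at -1.07 in Neo/Null and -0.78 in Neo/Wt tissue, *Tbx22* farthest to the right at 0.97 and 0.87, and the filled *Tbx3* points lie below 0 except 1 in Neo/Wt tissue at 0.03.

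*Tbx3*, a repressor of the *Tbx2* subfamily, was the T-box gene with a called difference. Its brightest probe set, 1448029_at, measured 7.63, 7.34 and 7.48 in Neo/Null nasal pools 1 to 3, against 7.92, 7.56 and 7.65 in the Neo/Null maxillary pools. In Neo/Wt it measured 7.34, 7.23 and 7.72 in nasal pools, against 8.06, 7.94 and 7.75 in maxillary pools. The groups overlapped in Neo/Null tissue and did not in Neo/Wt tissue, where nasal pool 3 came within 0.03 of maxillary pool 3. The nasal minus maxilla difference of this probe set was -0.23 (SE 0.14, limma adjusted p = 0.353) in Neo/Null and -0.49 (SE 0.14, limma adjusted p = 0.0455) in Neo/Wt tissue. The Neo/Wt value is a level 1.40-fold higher in maxilla. That call is a close one: without Neo/Wt nasal replicate 2 the adjusted p was 0.179, without Neo/Wt nasal replicate 1 it was 0.143, and without Neo/Wt maxilla replicates 1 or 2 it was 0.161 or 0.117.

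The other present *Tbx3* probe sets did not all give the same picture. Probe set 1445757_at measured 7.43, 7.35 and 7.14 in Neo/Null nasal pools, against 7.86, 7.77 and 7.91 in Neo/Null maxillary pools. In Neo/Wt it measured 7.12, 7.50 and 7.43 in nasal pools, against 8.03, 8.08 and 7.89 in maxillary pools. Nasal and maxillary pools did not overlap in either genotype, and all 6 pairs of like-numbered pools had the lower level in nasal tissue. It fell in nasal tissue by 0.54 in Neo/Null (SE 0.11, limma adjusted p = 0.00505) and by 0.65 in Neo/Wt embryos (SE 0.11, limma adjusted p = 0.00163). Without the 4 pools numbered 3, an alternative chosen after seeing the data, the Neo/Null difference was -0.43 with an adjusted p of 0.0783. Probe set 1437479_x_at, whose suffix marks probes that can also match other transcripts, differed by -0.30 in Neo/Null (limma adjusted p = 0.255) and by -0.69 in Neo/Wt tissue (limma adjusted p = 0.00859). The dimmer 1439567_at differed by -0.26 (SE 0.16) in Neo/Null and by 0.03 (SE 0.16) in Neo/Wt tissue, and passed in neither (limma adjusted p = 0.392 and 0.944). Without Neo/Null nasal replicate 2, its highest Neo/Null nasal pool, the Neo/Null difference was -0.49 (adjusted p = 0.0281). The fifth, 1444594_at, was called absent in all groups and ranged from 3.17 to 3.85.

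*Tbx2*, the other member of that subfamily, was present in all groups and showed opposite signs between prominences in the 2 genotypes. It measured 9.10, 9.08 and 8.85 in Neo/Null nasal pools, against 8.75, 8.53 and 8.48 in Neo/Null maxillary pools, without overlap. In Neo/Wt it measured 8.72, 8.88 and 8.68 in nasal pools, against 9.14, 9.06 and 8.51 in maxillary pools. The Neo/Wt groups overlapped because of maxilla pool 3, the library that also stood low in markers of new neurons. The nasal minus maxilla difference was 0.43 in Neo/Null (SE 0.14, limma adjusted p = 0.0889) and -0.14 in Neo/Wt tissue (SE 0.14, limma adjusted p = 0.646), and neither passed. The Neo/Null difference passed with the pool as a block (limma adjusted p = 0.0372) and without Neo/Wt maxilla replicate 3 (adjusted p = 0.0133), a library that is not in the comparison but enters the common estimate of the spread. Without that library the Neo/Wt difference was -0.34 (adjusted p = 0.0841). The part of the neuron markers in these values was not tested.

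*Tbx22*, the X-linked cleft palate gene, had the higher level in nasal tissue. It measured 7.18, 7.53 and 6.30 in Neo/Null nasal pools, against 6.17, 6.20 and 5.75 in Neo/Null maxillary pools. In Neo/Wt it measured 7.04, 7.39 and 6.19 in nasal pools, against 6.26, 6.24 and 5.52 in maxillary pools. Nasal and maxillary pools did not overlap in Neo/Null tissue, whereas in Neo/Wt tissue nasal pool 3 lay below maxillary pools 1 and 2. The difference was 0.97 in Neo/Null (SE 0.33, 1.96-fold, 95% interval 1.19 to 3.22, limma adjusted p = 0.0937) and 0.87 in Neo/Wt tissue (SE 0.33, 1.83-fold, 95% interval 1.11 to 3.01, limma adjusted p = 0.147). Neither passed when pools were treated as unrelated. Each passed once its own low nasal pool was left out, at 1.32 in Neo/Null without Neo/Null nasal replicate 3 (adjusted p = 0.0214) and at 1.21 in Neo/Wt tissue without Neo/Wt nasal replicate 3 (adjusted p = 0.044). Without the high nasal replicate 2 of the same genotype the difference was 0.71 in Neo/Null (adjusted p = 0.295) and 0.61 in Neo/Wt tissue (adjusted p = 0.425), and without Neo/Wt maxilla replicate 3 the Neo/Wt difference was 0.63 (adjusted p = 0.37).

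The spread of *Tbx22* within each group ran along the pool numbers. Pool 3 was the lowest in all 4 groups. Against the mean of pools 1 and 2 it differed by -1.05 in Neo/Null nasal, -0.43 in Neo/Null maxillary, -1.02 in Neo/Wt nasal and -0.73 in Neo/Wt maxillary tissue. Among 20153 probe sets present in all groups, 4.67% had pool 3 lowest in all 4 groups, *Tbx2* among them, and 0.0496% had a mean gap below the -0.81 of *Tbx22*. The mean signal of 8 markers of crest mesenchyme was also lowest in pool 3 of every group, at 9.67 in Neo/Null nasal, 9.84 in Neo/Null maxillary, 9.75 in Neo/Wt nasal and 9.85 in Neo/Wt maxillary tissue, and its part in the *Tbx22* values was not tested. Within like-numbered pools the nasal level of *Tbx22* exceeded the maxillary one by 1.01, 1.33 and 0.55 in Neo/Null and by 0.78, 1.15 and 0.68 in Neo/Wt tissue. All 6 pairs thus had the higher level in nasal tissue. With the pool as a block, the difference passed in Neo/Null (limma adjusted p = 0.00283) and in Neo/Wt tissue (limma adjusted p = 0.00578), in a fit that called 10.8% of all probe sets in Neo/Null and 9.54% in Neo/Wt tissue. Without the 4 pools numbered 3 the difference was 1.17 in Neo/Null (adjusted p = 0.0012) and 0.97 in Neo/Wt tissue (adjusted p = 0.00429).

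*Tbx1*, the pharyngeal arch gene, had the lower level in nasal tissue, at a dim signal that never earned a present call. It measured 4.68, 4.56 and 4.33 in Neo/Null nasal pools, against 5.60, 5.47 and 5.70 in Neo/Null maxillary pools. In Neo/Wt it measured 4.74, 4.71 and 4.60 in nasal pools, against 5.34, 5.58 and 5.46 in maxillary pools. The 6 nasal pools all lay below the 6 maxillary pools. The difference was -1.07 in Neo/Null (SE 0.10) and -0.78 in Neo/Wt tissue (SE 0.10), and no fold is given since the signal was called absent in nasal tissue. Under the detection filter this probe set was not tested. With no filter it passed in Neo/Null (limma adjusted p = 2.4e-05) and in Neo/Wt tissue (limma adjusted p = 0.000461), where 4.68% of all probe sets passed in Neo/Null and 3.77% in Neo/Wt tissue. With an offset of 32 added on the linear scale the differences were -0.54 in Neo/Null and -0.40 in Neo/Wt tissue, and the Neo/Wt value was then smaller in size than that of *Tbx3* 1445757_at (-0.56).

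The mean signal of markers of the pharyngeal core mesoderm, a tissue in which *Tbx1* is known to be expressed, was also lower in nasal tissue. The mean of 6 such markers was 5.05 to 5.10 in Neo/Null nasal pools, against 5.57 to 5.65 in Neo/Null maxillary pools. It was 4.93 to 5.10 in Neo/Wt nasal pools, against 5.36 to 5.66 in Neo/Wt maxillary pools. Of 5 tested, 3 (*Isl1*, *Msc* and *Tcf21*) were lower and 1 was higher in nasal tissue in each genotype. *Isl1*, the brightest of the 5, is also on the list of new neuron markers. *Msc* and *Tcf21*, defining genes of that mesoderm, were absent in nasal and present in maxillary tissue of both genotypes. They were thus tested only through the tissue where they were higher. The muscle gene *Myod1* was absent in all groups. *Lhx2*, of the same list, went the other way and was higher in nasal tissue by 1.36 in Neo/Null and 1.30 in Neo/Wt embryos. In Neo/Wt embryos *Lhx2* was present in nasal tissue alone, so there it too was tested only through the tissue where it was higher. The part of this mesoderm in the *Tbx1* values was not tested.

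*Tbx18*, known for its role in somites and in mesenchyme around developing organs, stood near the detection limit. Its brighter probe set measured 5.04, 5.20 and 4.92 in Neo/Null nasal pools, against 4.59, 4.78 and 5.02 in Neo/Null maxillary pools. In Neo/Wt it measured 4.83, 5.12 and 4.52 in nasal pools, against 4.26, 4.57 and 4.92 in maxillary pools. The groups overlapped in both genotypes, and pools 1 and 2 were higher in nasal tissue while pool 3 was lower there. The difference was 0.26 in Neo/Null (SE 0.17, limma adjusted p = 0.435) and 0.24 in Neo/Wt tissue (SE 0.17, not tested under the filter). The second probe set ranged from 3.02 to 3.72 and was present in no group. *Tbx15*, needed for the skeleton and for coat pattern in mice, was absent throughout, with its probe sets at 4.23 to 4.65 and 3.03 to 3.56 in the 12 arrays. No difference in *Tbx15* was detectable on these arrays.

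Genes that followed *Tbx1* most closely were looked for by the root mean square difference between log2 profiles over the 12 arrays, each centred on its own mean, among 10591 genes. The nearest 3 were *Morc4* (0.11), *Sostdc1* (0.12) and *Vwa5a* (0.13), where a flat profile lies 0.48 from that of *Tbx1*. *Sostdc1*, which encodes a secreted inhibitor of Bmp and Wnt signals, averaged 7.38 ± 0.26 in Neo/Null nasal and 8.31 ± 0.04 in Neo/Null maxillary tissue (SD, n = 3 each). *Tbx22* did not reach the size of difference set for this search and was added after its values were seen. Its nearest genes were *Pax9* (0.23), *Dkk2* (0.28) and *Cldn11* (0.28), with a flat profile at 0.62. *Dkk2* and *Cldn11* were dim, averaging 5.31 and 4.78 in Neo/Null nasal and 3.70 and 3.83 in Neo/Null maxillary tissue. *Pax9*, a transcription factor gene needed for palate and teeth in mice, averaged 6.87 ± 0.62 in Neo/Null nasal and 5.90 ± 0.05 in Neo/Null maxillary tissue (SD, n = 3 each). In Neo/Wt embryos it averaged 6.77 ± 0.22 in nasal and 5.85 ± 0.11 in maxillary tissue. *Dkk2* encodes a secreted modulator of Wnt signals, and its lowest pool was pool 3 in each group, as for *Tbx22*. Choosing genes by their likeness over all 12 arrays favours such a shared pattern.

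**Figure D3:**
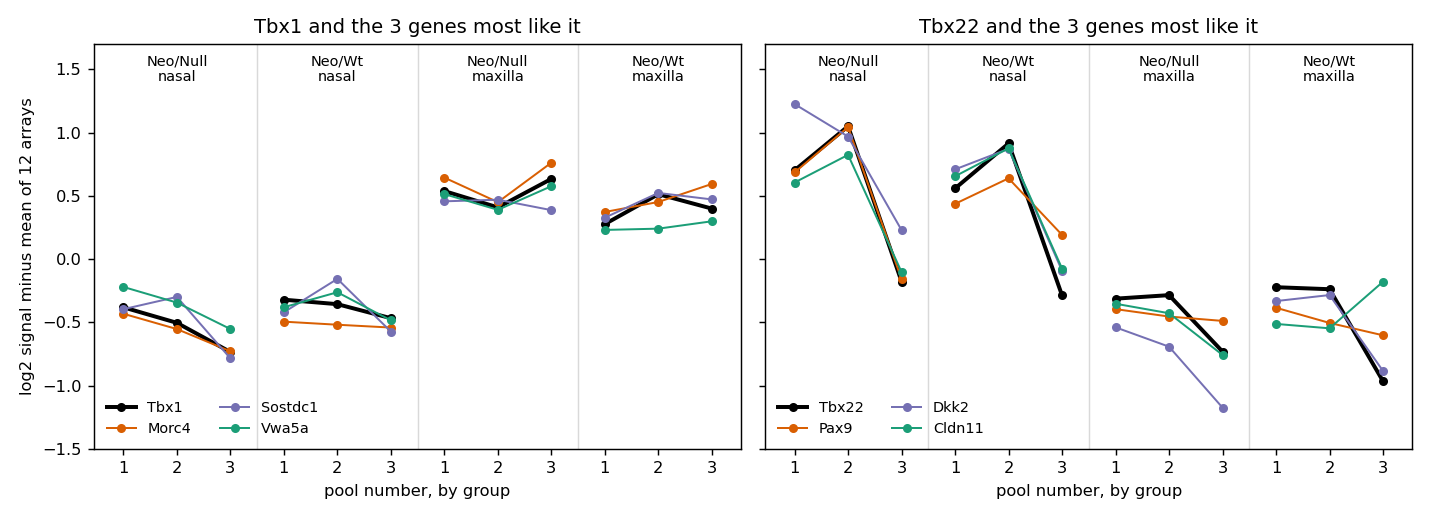
Log2 signal minus the mean of 12 arrays (y axis) for *Tbx1* and *Tbx22* (black) and for the 3 genes nearest to each, by pool number within group (x axis, lines joining pools of a group for the eye only). The *Tbx1* set lies below 0 in all nasal pools and above 0 in all maxillary pools, and in the *Tbx22* set nasal pool 3 lies below nasal pools 1 and 2 for all 4 genes. The genes were chosen for this likeness.

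The second question is whether the further lowering of *Tfap2a* function in Neo/Null embryos changed these genes, asked as Neo/Null minus Neo/Wt. The paper found some normally spliced *Tfap2a* transcript left in Neo/Null faces, so this contrast is not a full loss. By limma's adjusted p, 0 of 6 tested T-box probe sets passed in nasal and 0 of 6 in maxillary tissue. Over all probe sets, 0.00474% passed in nasal and 0% in maxillary tissue, so that few genes of any kind passed there. At an unadjusted p under 0.05, 0 of the 6 passed in nasal tissue, against 3.88% of all probe sets. In maxillary tissue 1 of the 6 passed, against 4.97% of all. Genotypes overlapped for all 6 in both prominences, whereas 8.19% of all probe sets in nasal and 11.6% in maxillary tissue did not overlap.

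**Figure D4:**
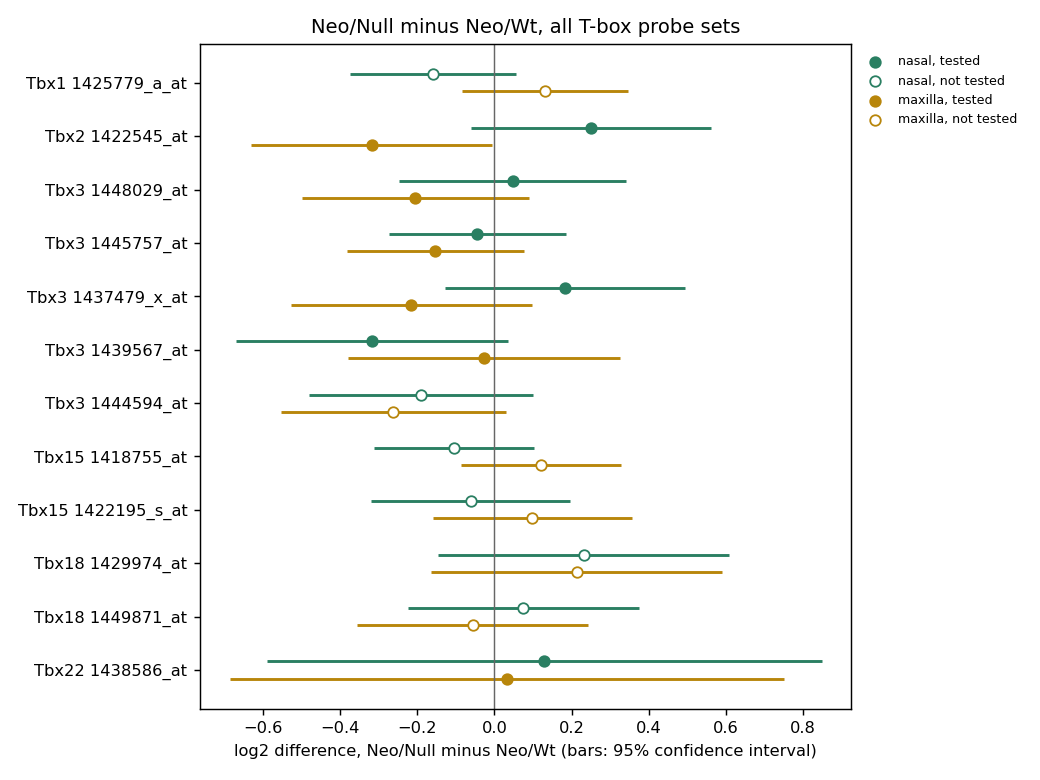
Neo/Null minus Neo/Wt log2 signal (x axis) of the 12 T-box probe sets (y axis) in nasal and maxillary tissue, with limma's 95% confidence interval and open points where the probe set was not tested. All intervals reach across 0 except that of *Tbx2* in the maxilla, which runs from -0.63 to -0.01.

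The probe set with an unadjusted p under 0.05 was that of *Tbx2*. It averaged 8.58 ± 0.14 in Neo/Null and 8.90 ± 0.34 in Neo/Wt maxilla (SD, n = 3 each), a difference of -0.32 (SE 0.14, limma adjusted p = 0.99). In nasal tissue it averaged 9.01 ± 0.14 in Neo/Null and 8.76 ± 0.10 in Neo/Wt pools, a difference of 0.25 (SE 0.14, limma adjusted p = 1). The difference between these differences was 0.57 (SE 0.20, limma adjusted p = 0.999). It was 1 of the 6 probe sets with an unadjusted p under 0.05 in that interaction, where 3.87% of all probe sets had one and 0% passed the adjusted test. Without Neo/Wt maxilla replicate 3 the maxillary difference was -0.52 (adjusted p = 0.223) and the interaction 0.77 (adjusted p = 0.535).

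None of the other genes passed between genotypes. *Tbx22* averaged 7.01 ± 0.63 in Neo/Null and 6.88 ± 0.62 in Neo/Wt nasal tissue, a difference of 0.13 whose 95% interval runs from -0.59 to 0.85. In the maxilla it averaged 6.04 ± 0.25 in Neo/Null and 6.01 ± 0.42 in Neo/Wt pools, a difference of 0.03 with an interval of -0.69 to 0.75. These intervals span folds of 0.66 to 1.80 in nasal and 0.62 to 1.68 in maxillary tissue when pools are treated as unrelated. With the pool number as a replicate block the SE of the maxillary difference was 0.13 in place of 0.33 (limma adjusted p = 0.99). The brightest *Tbx3* probe set was bounded more closely, at 0.05 (-0.25 to 0.34) in nasal and -0.20 (-0.50 to 0.09) in maxillary tissue. The dimmer *Tbx3* 1439567_at had a nasal difference of -0.32 (-0.67 to 0.03), as large as that of *Tbx2* in the maxilla, and a maxillary one of -0.03 (-0.38 to 0.33). *Tbx1*, not tested under the filter, differed by -0.16 (SE 0.10) in nasal and 0.13 (SE 0.10) in maxillary tissue. The brighter *Tbx18* probe set differed by 0.23 (SE 0.17) in nasal and 0.21 (SE 0.17) in maxillary tissue. Averaged over both prominences, 0 of the 6 tested probe sets passed after adjustment and 0 before it at 0.05, against 0.00903% and 5.37% of all probe sets.

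In order of mean level, *Tbx22* ran Neo/Null nasal, Neo/Wt nasal, Neo/Null maxilla, Neo/Wt maxilla, and within a prominence the genotypes lay closer than the SD of either. *Tbx1* ran Neo/Null maxilla, Neo/Wt maxilla, Neo/Wt nasal, Neo/Null nasal, with overlap between genotypes and none between prominences. The brightest *Tbx3* probe set ran Neo/Wt maxilla, Neo/Null maxilla, Neo/Null nasal, Neo/Wt nasal, and *Tbx2* ran Neo/Null nasal, Neo/Wt maxilla, Neo/Wt nasal, Neo/Null maxilla, with overlap between neighbours in both.

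Of 11 further T-box genes, 9 had a probe set of their own on the array. *Mga*, which encodes a large protein with a T-box domain and a MAX-binding domain, was present in all 4 groups, *Eomes* and *Tbx19* were present in 1 group each, and 6 were present in none, among them *Tbx4* and *Tbx5*, which lie beside *Tbx2* and *Tbx3* in the genome and act in limbs. *Mga* differed by -0.14 in Neo/Null and -0.16 in Neo/Wt tissue between prominences (SE 0.08 each, limma adjusted p = 0.341 and 0.289). None of the further genes tested passed in any of the 6 comparisons by limma's adjusted p, and 0 had an unadjusted p under 0.05.

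Among 14 genes of the signals that act upstream of T-box genes, 10 were tested between prominences. Over all probe sets, 9.65% were called in Neo/Null and 8.23% in Neo/Wt tissue, and these shares stand beside the counts of this list and of both that follow. In Neo/Null tissue 4 were higher and 3 lower in nasal tissue, with a list median of 0.24 against 0.02 over all genes. In Neo/Wt tissue 2 were higher and 2 lower, with a list median of 0.11 against -0.01. *Foxc1* and *Foxc2*, forkhead genes known to control *Tbx1* in pharyngeal tissue, were higher in nasal tissue by 0.75 and 0.77 in Neo/Null and by 0.69 and 0.73 in Neo/Wt embryos. *Shh*, a signal upstream of *Tbx1* in the pharynx, fell by 0.59 in Neo/Null and by 0.48 in Neo/Wt nasal tissue. *Cyp26a1*, which breaks down retinoic acid, fell by 0.65 in Neo/Null and by 0.59 in Neo/Wt nasal tissue. *Fgf8* and *Bmp7*, signals of the facial ectoderm, were higher in nasal than in maxillary tissue by 0.79 and 0.49 in Neo/Null embryos. In Neo/Wt embryos they were higher by 0.33 and 0.24 and did not pass (limma adjusted p = 0.0896 and 0.249). Neither passed in the interaction (limma adjusted p = 0.999 each). *Aldh1a2*, which makes retinoic acid, was lower in Neo/Null nasal tissue by a difference of -0.59 at a dim mean signal of 4.16. It was not tested in Neo/Wt tissue.

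Of 19 partners and co-repressors, 12 were tested between prominences. In Neo/Null tissue 2 were higher and 0 lower, and in Neo/Wt tissue 2 were higher and 1 lower. *Pax3*, a transcription factor gene of the neural crest, was higher in nasal tissue by 2.49 (SE 0.22) in Neo/Null and 1.92 (SE 0.22) in Neo/Wt embryos. *Tle1*, a Groucho co-repressor gene, was higher by 0.55 in Neo/Null and 0.44 in Neo/Wt embryos, while its relative *Tle3* fell by 0.28 in Neo/Wt nasal tissue. In Neo/Null tissue *Tle3* differed by -0.16 and did not pass (limma adjusted p = 0.208). List medians were 0.03 in Neo/Null and 0.04 in Neo/Wt tissue.

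Of 18 genes known as T-box targets in other tissues, 10 were tested between prominences. In each genotype 2 were higher and 1 lower in nasal tissue, with list medians of 0.13 in Neo/Null and 0.24 in Neo/Wt tissue. *Wnt5a*, a Wnt ligand of outgrowing mesenchyme, was higher in nasal tissue by 1.33 (SE 0.15) in Neo/Null and 1.33 (SE 0.15) in Neo/Wt embryos. *Fgf9*, an Fgf ligand, was higher by 0.99 in Neo/Null and 1.04 in Neo/Wt embryos (SE 0.09 each). *Ndrg1*, a target of TBX2 in human cells, was lower in Neo/Null nasal tissue at -0.49. In Neo/Wt tissue *Ndrg1* differed by -0.28 and did not pass (limma adjusted p = 0.184). *Gbx2* was lower in Neo/Wt nasal tissue at -0.57, at a dim mean signal of 2.94, and was not tested in Neo/Null tissue. Between genotypes, 0 genes of these 3 lists passed limma's adjusted test in nasal or maxillary tissue. At an unadjusted p under 0.05, 2, 0 and 1 of them were higher in Neo/Null nasal and 1, 1 and 3 in Neo/Null maxillary tissue, in the order signals, partners and targets, and 1 partner was lower in the maxilla. The lists held 9, 12 and 9 genes tested in each prominence, and over all probe sets 3.88% in nasal and 4.97% in maxillary tissue had such a p in either direction. The maxillary targets so counted include *Fgf9* at 0.39, by a dimmer probe set (mean signal 6.24). Its brighter probe set (6.74), used in the other comparisons, was not tested between genotypes in the maxilla.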

How the data were processed

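RNA from 12 pools of E10.5 facial tissue (4 groups of 3 pools) was hybridized to Affymetrix Mouse430 2.0 arrays. Each deposited value is the log2 signal of 1 probe set, made by the authors in the GeneChip Operating Software with each array scaled to one target, per the paper's methods. How the probes were summarised and where the log was taken is not given in the sources used here. Array medians ran from 5.13 to 5.19. The deposited detection score (1 present, 0 variable, -1 absent) is one value per group. The table with the scores also holds 12 columns with the same log2 values, which were left aside.

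Left out were 64 control probe sets. The platform annotation gave 1 symbol to 34945 probe sets, several to 932 and none to 9160, and no probe set with several symbols held a T-box gene followed here. The probe set with the highest mean stands for a gene. In counts of the other lists it is the brightest one tested in that comparison. limma 3.58.1 (R 4.3.3) was run on all 12 arrays with a mean for each group (8 residual and 4.72 prior degrees of freedom), with Benjamini-Hochberg adjustment over all probe sets tested in a contrast and a threshold of 0.05. The procedure was run on simulated data for the Neo/Wt comparison of prominences, with noise drawn independently for each array. Relations between like-numbered pools were not simulated. Precision is limited by 3 pools per group. Genes of the other lists were named where they passed the threshold, up to 4 per direction and comparison. The genes, lists and tests were chosen with earlier results of these data known.

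Pool numbers come from the sample titles. Deviations of like-numbered nasal and maxillary pools correlated across probe sets at 0.262, 0.296 and 0.221 in Neo/Null and at 0.205, 0.254 and 0.289 in Neo/Wt tissue. These pools were therefore taken as pairs in the differences of like-numbered pools and in the fits with a block. The main fit treated all pools as unrelated, and it gave the counts and adjusted p values wherever no alternative is named. Between genotypes the correlations were -0.175, 0.135 and 0.216 in nasal and 0.173, 0.239 and 0.487 in maxillary tissue. Alternatives were other scalings, an offset of 32, other filters, array weights, a variance trend, only the 6 arrays compared, a block for the pool, and leaving out each array. Motif searches used RefSeq promoter windows of GRCm38.p6.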

Additional observations from a re-analysis of the deposited data

How the results depend on the processing

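Not all 23 alternatives were run for each comparison. The block by pool was not run between genotypes, and the fit of 6 arrays was not run for the interaction or the average over prominences. Under the alternatives run, the count of called T-box probe sets stayed at 0 between genotypes, in their average and in the interaction. Between prominences in Neo/Wt tissue it was 3 and ran from 2 to 4. Counts thus stayed within 1.5 times the reported count in 5 of 6 comparisons, a rule under which 3 may fall to 2. The exception was nasal minus maxilla in Neo/Null tissue, at 1. It was 2 with no filter, with array weights and with only the 6 arrays compared. It was 3 with the pool number as a replicate block and 3 with the block by pool, which added *Tbx2* and *Tbx22*. It was 2 without the 4 pools numbered 3, an alternative chosen after seeing the data, and ran from 1 to 2 with 1 array left out. The replicate block also added *Tbx22* in Neo/Wt tissue (adjusted p = 0.00176) and changed no other call. Of 820 values of tested probe sets under an alternative, 36 turned sign, 0 of them among called values. Of 775 values of probe sets not tested under the filter, which lie near background, 37 turned sign. With array weights the sign turned for *Tbx3* 1439567_at between prominences in Neo/Wt (-0.0450), *Tbx22* between genotypes in the maxilla (-0.0306) and *Tbx3* 1437479_x_at between genotypes averaged over prominences (0.0280). Without the 4 pools numbered 3 the same values were -0.1204, -0.0686 and 0.0612, and *Tbx3* 1445757_at between genotypes in nasal tissue was 0.0784. The cause was not tested.

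With 1 array left out, the sign also turned for values that did not pass. Between prominences in Neo/Wt tissue, *Tbx3* 1439567_at ran from -0.0460 to 0.1129. Between genotypes in nasal tissue, *Tbx3* 1448029_at ran from -0.0540 to 0.1940, *Tbx3* 1445757_at ran from -0.1603 to 0.0378 and *Tbx22* 1438586_at ran from -0.2116 to 0.4806. Between genotypes in the maxilla, *Tbx3* 1439567_at ran from -0.1004 to 0.0574 and *Tbx22* 1438586_at ran from -0.2127 to 0.1764. In the interaction, *Tbx3* 1445757_at ran from -0.0065 to 0.1915 and *Tbx22* 1438586_at ran from -0.2438 to 0.4484. Between genotypes averaged over prominences, *Tbx2* 1422545_at ran from -0.1327 to 0.0246, *Tbx3* 1437479_x_at ran from -0.0715 to 0.0482 and *Tbx22* 1438586_at ran from -0.0897 to 0.2564.

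The call of *Tbx3* 1448029_at in Neo/Wt tissue was also lost with an offset of 32 (adjusted p = 0.0527), with no filter (0.0756), among probe sets present in all 4 groups (0.0508), with only the 6 arrays compared (0.0722) and without Neo/Null nasal replicate 2 (0.0503), Neo/Null nasal replicate 3 (0.0557) or Neo/Null maxilla replicate 3 (0.0547). *Tbx22* passed in Neo/Null tissue with array weights (adjusted p = 0.0317). *Tbx2* passed in Neo/Null tissue with only the 6 arrays compared (0.0384) and without the 4 pools numbered 3 (0.0276). Signals called absent, as for *Tbx1* and *Tbx15*, limit what these arrays can show.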
